A study of Rattus norvegicus with 23 samples.

Results

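Added Nkx2.2 was compared with a control vector in differentiating CG4 cells, a rat cell line immortalized from brain oligodendroglia. The comparison took the 4 libraries whose titles name T7-Nkx2.2 and the 4 whose titles name GFP only, 8 of the 23 libraries in the series. The Nkx2.2 cells carried pCAG-T7-Nkx2.2-IRES-EGFP, in which the constitutive CAG promoter drives tagged Nkx2.2 together with EGFP, and the control cells expressed GFP without the factor. Both groups had been moved for 3 days from growth medium to SATO medium with high T3/T4, the thyroid hormones, and CNTF, a ciliary neurotrophic cytokine. The factor was therefore added on top of the cells' own Nkx2-2 gene, in 1 cell line. The titles call the libraries biological replicates without saying whether they came from separate cultures, so p-values speak for these libraries only. A further 4 libraries of CG4 cells with pCAG-myc-Zfp488-IRES-EGFP under the same conditions are used below only as a point of comparison. So are 4 libraries of wild-type primary rat oligodendroglia, shaken off mixed glial cultures of brain and differentiated for 3 days in the same medium, and 4 of such cells kept proliferating in basal medium with bFGF and PDGF-AA.

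Nkx2.2 is a homeodomain transcription factor of the NK-2 class. It specifies ventral progenitors of the neural tube and endocrine cells of the pancreas, and it is turned on in oligodendrocyte precursors as they commit to differentiate. It acts largely as a repressor and recruits Groucho corepressors of the Tle family, and loss of Nkx2.2 in mice delays oligodendrocyte maturation. The comparison asks which genes and gene families differ when the factor is added to differentiating cells.

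Total counts per library were 31112360 to 40854053 with Nkx2.2 and 39268564 to 49206479 in control. The cells of both groups expressed the genes of the oligodendrocyte lineage. Sox10, the lineage's Sox factor, lay at 1224 to 1656 CPM with Nkx2.2 and 1507 to 1640.2 CPM in control, and Olig2, the bHLH factor of the lineage, lay at 303 to 523 CPM with Nkx2.2 and 371 to 516 CPM in control. Neither passed the test described next (adjusted p = 0.145 and 0.11), and both were lower without the third pair of libraries (adjusted p = 0.0479 and 0.0334). Levels are CPM, counts scaled to a common library size by TMM, means are given ± SD over the 4 libraries of a group, changes are log2 fold changes ± SE of Nkx2.2 over control, and p-values are those of edgeR's quasi-likelihood test, adjusted over all genes tested. The replicate number entered the fit as a block, so that each Nkx2.2 library was set against the control library of the same number, called a pair below. With the block, p-values set a change against the spread left after differences between replicate numbers are removed, not the full spread within groups. Each SE was derived from the test, as the absolute change divided by the square root of its F statistic. In bulk RNA, a change in the number of cells that express a gene and a change per cell cannot be told apart.

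The introduced gene was read first. Nkx2-2 (ENSRNOG00000012728) had 1367, 1621, 1193 and 1857 CPM in the 4 Nkx2.2 libraries, against 277, 277, 194 and 252 CPM in the 4 control libraries. Every Nkx2.2 library lay above every control library, and the Nkx2.2 library of pair 3 had the lowest level of the introduced gene in its group. The difference was 2.60 ± 0.11 on the log2 scale (adjusted p = 1.53e-05). The counts do not separate the transcript of the vector from that of the cells' own gene.

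Of 14610 genes tested, 2951 (20.2%) passed an adjusted p under 0.05, of which 1530 (10.5%) were higher and 1421 (9.73%) lower with Nkx2.2. The rises were larger than the falls. Among the genes that passed, 616 were higher by at least 1 on the log2 scale and 244 were lower by at least 1, and 72 were higher by at least 3 while 0 were lower by as much. The median size was 0.81 among rises and -0.52 among falls, beside a median of 0.0007 over all genes tested. The groups did not overlap for 2200 genes (15.1% of those tested), and 1649 genes both passed and did not overlap. Without the block the numbers were 798 and 499, and each of these 1297 genes also passed with it, with the same sign. Without pair 2 the numbers were 676 and 463, and without pair 1, 3 or 4 the total was 2116, 3345 or 2056. Lists whose members pass mainly through the block or through 1 pair are marked as such below.

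**Figure D1:**
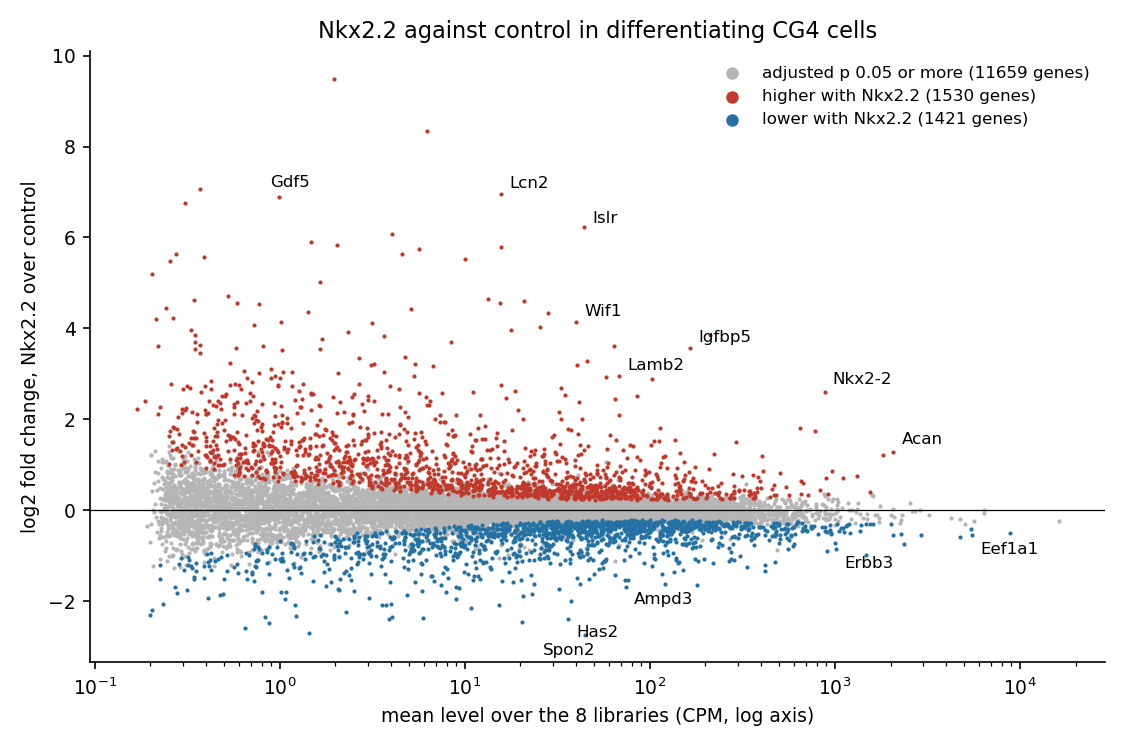
Log2 fold change of Nkx2.2 over control (vertical axis) against the mean level over the 8 libraries (horizontal log axis, CPM), with 1 point per gene tested. Red points (1530 genes) passed as higher and blue points (1421 genes) as lower with Nkx2.2, and grey points did not pass. Red points reach far above 3 on the log2 scale, whereas no blue point lies below -3.

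The largest rises concerned genes that were close to undetected in control cells. The examples were taken from genes averaging 5 CPM or more whose groups did not overlap. Lcn2 (ENSRNOG00000013973), the secreted siderophore-binding protein lipocalin 2, had 34.9, 27.9, 16.3 and 45.2 CPM with Nkx2.2, against 0.228, 0.225, 0.362 and 0.167 CPM in control (6.95 ± 0.31, adjusted p = 1.8e-05). Islr (ENSRNOG00000048924), a secreted leucine-rich repeat protein known from mesenchymal stromal cells, had 78.3, 66.8, 68.4 and 133 CPM with Nkx2.2, against 1.14, 0.998, 0.814 and 1.69 CPM in control (6.23 ± 0.10, adjusted p = 9.3e-08). In both genes the lowest Nkx2.2 library exceeded the highest control library many times over. Cd24, a surface glycoprotein of immature cells, lay at 25.8 ± 4.86 CPM with Nkx2.2 and 1.05 ± 0.331 CPM in control (4.65 ± 0.13, adjusted p = 1.78e-06). B4galnt3, an N-acetylgalactosaminyltransferase, rose by 4.02 ± 0.34, Hsd11b1, which regenerates active glucocorticoid, by 3.97 ± 0.18, and Smpd3, a neutral sphingomyelinase, by 3.61 ± 0.14 (adjusted p = 0.00028, 1.87e-05 and 9.48e-06). Among the 20 largest rises so chosen the Nkx2.2 library of pair 3, which also held the least Nkx2-2, was the lowest of its group in 14 genes, and that of pair 4, which held the most, was the highest in 13. Over all 616 genes with a log2 change of 1 or more, the library of pair 3 was the lowest in 338, that of pair 4 the highest in 235 and that of pair 1 the highest in 213. Whether the level of the introduced gene sets that order was not tested.

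The largest falls were smaller in size. Spon2, a secreted matrix protein of the F-spondin family, had 2.39, 8.14, 24.4 and 13.9 CPM with Nkx2.2, against 25.5, 64.9, 52.1 and 166 CPM in control (-2.74 ± 0.38, adjusted p = 0.00253), and just missed the threshold without the block (adjusted p = 0.0501). Has2, which synthesizes hyaluronan, had 12.9, 13.4, 10.2 and 8.15 CPM with Nkx2.2, against 90.7, 69.5, 45.6 and 37.3 CPM in control (-2.38 ± 0.12, adjusted p = 2.88e-05). Ampd3, a deaminase of adenosine monophosphate, had 29.2, 38.4, 39.3 and 32.7 CPM with Nkx2.2, against 111, 133, 111 and 98.97 CPM in control (-1.70 ± 0.09, adjusted p = 3.15e-05). For these 3 genes every Nkx2.2 library lay below every control library. Gng4, a G protein gamma subunit, fell by 2.37 ± 0.19, Plin2, the coat protein of lipid droplets, fell by 1.65 ± 0.27, Abcb1b, a drug efflux pump, fell by 1.57 ± 0.14, and Prkcd, a protein kinase C, fell by 1.55 ± 0.17 (adjusted p of at most 0.00492). Among genes whose groups did not overlap, the largest fall in absolute level was that of Eef1a1, the translation elongation factor, with 4456 ± 502 CPM with Nkx2.2 and 6549 ± 619 CPM in control (-0.55 ± 0.10, adjusted p = 0.00638). That call was lost without pair 2 (adjusted p = 0.0547), and Eef1a1 has near-identical copies in the genome that the authors' counting could split.

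**Figure D2:**
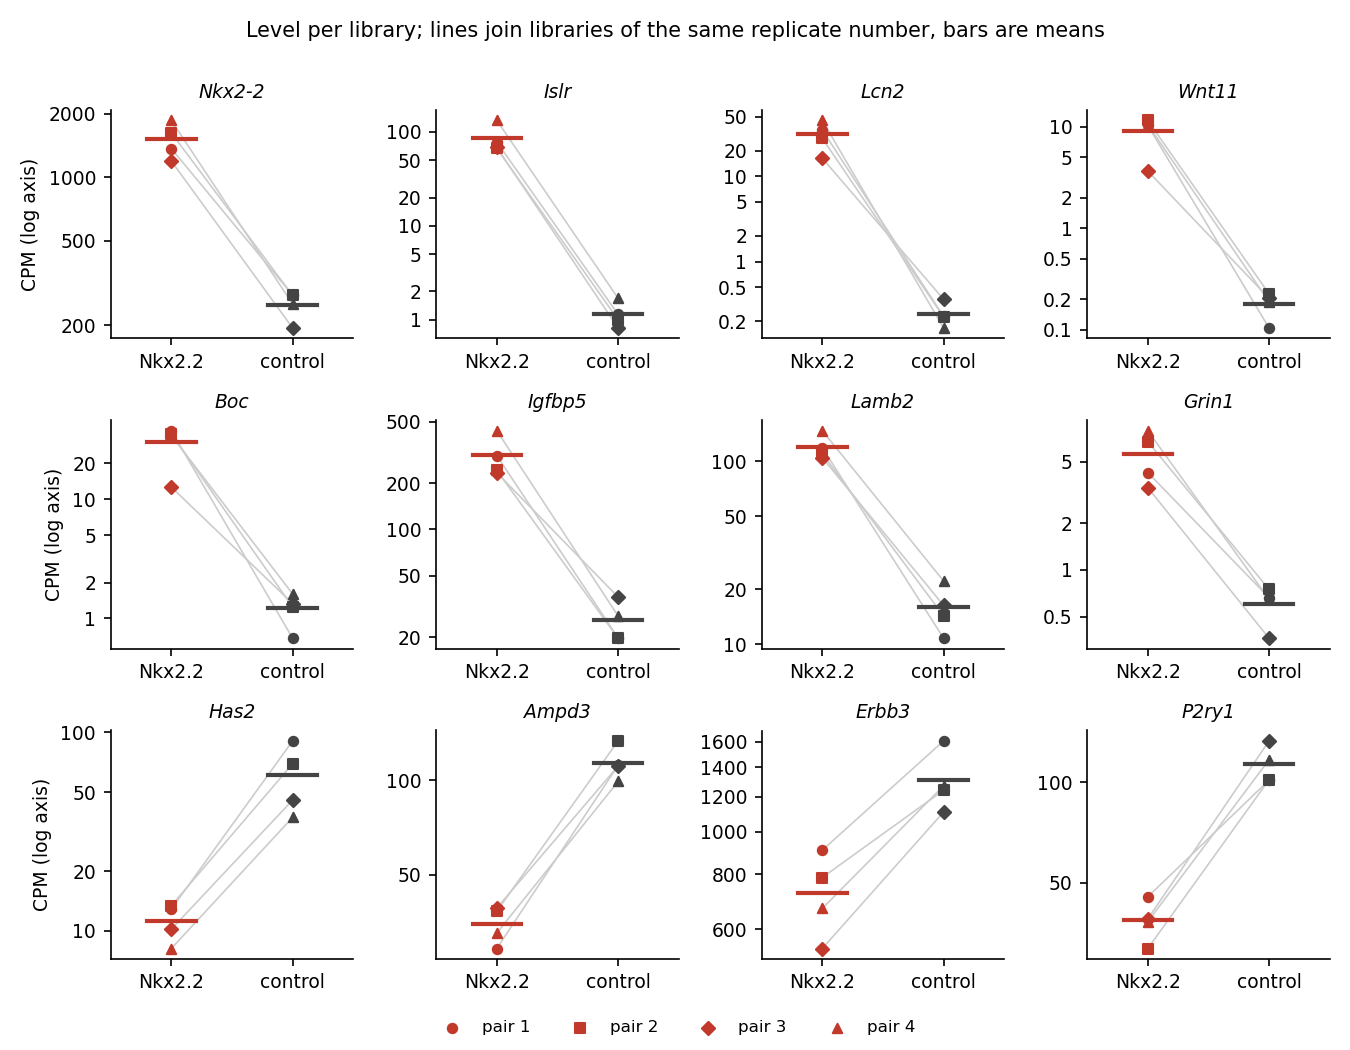
Level of 12 genes in each library (vertical log axes, CPM), with the 4 Nkx2.2 libraries in red on the left and the 4 control libraries in dark grey on the right of each panel. Symbols mark the pair, lines join libraries of a pair and bars are group means. The first 8 genes lie higher and the last 4 lower with Nkx2.2, in all 4 pairs and with no overlap of the groups.

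The promoters of some of these genes are shown because NK-2 factors bind DNA with the core TNAAGTG. The windows run from 250 bases before to 50 bases after the RefSeq start of each gene (build GRCr8), 5′ to 3′ in lower case, with matches to TNAAGTG or its reverse CACTTNA in capitals. Of the 68 genes named for the size of their change, 42 had 1 promoter entry, and 3 of these windows held a match. These were Islr (chr8:67469209-67469508, minus strand), Mia (chr1:91602970-91603269, minus strand), a secreted cartilage and melanoma protein, and Chadl (chr7:115097516-115097815, minus strand), a collagen-binding leucine-rich repeat protein. Chadl rose by 0.65 ± 0.11 (adjusted p = 0.00615, and 0.0537 without pair 2). The windows of Lcn2 (chr3:36081731-36082030, minus strand) and Spon2 (chr14:81736466-81736765, plus strand), the largest rise and the largest fall by the same rule that have an entry, held none and are given beside them.
Islr: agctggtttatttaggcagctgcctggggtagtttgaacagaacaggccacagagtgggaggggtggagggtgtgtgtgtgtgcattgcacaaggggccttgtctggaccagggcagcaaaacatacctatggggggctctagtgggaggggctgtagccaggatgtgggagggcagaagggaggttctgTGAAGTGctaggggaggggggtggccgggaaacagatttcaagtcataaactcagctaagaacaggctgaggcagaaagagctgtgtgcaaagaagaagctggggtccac
Mia: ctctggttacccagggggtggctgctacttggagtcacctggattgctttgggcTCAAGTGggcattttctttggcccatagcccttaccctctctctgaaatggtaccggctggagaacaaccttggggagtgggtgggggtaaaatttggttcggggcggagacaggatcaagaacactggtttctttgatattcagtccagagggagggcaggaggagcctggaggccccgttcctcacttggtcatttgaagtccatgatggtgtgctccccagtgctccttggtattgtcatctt
Chadl: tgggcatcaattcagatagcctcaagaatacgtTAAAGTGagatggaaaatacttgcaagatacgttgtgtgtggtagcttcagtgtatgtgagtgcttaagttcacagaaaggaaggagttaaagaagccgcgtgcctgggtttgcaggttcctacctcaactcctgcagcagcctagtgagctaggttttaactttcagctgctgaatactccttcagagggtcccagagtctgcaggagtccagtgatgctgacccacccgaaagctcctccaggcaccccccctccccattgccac
Lcn2: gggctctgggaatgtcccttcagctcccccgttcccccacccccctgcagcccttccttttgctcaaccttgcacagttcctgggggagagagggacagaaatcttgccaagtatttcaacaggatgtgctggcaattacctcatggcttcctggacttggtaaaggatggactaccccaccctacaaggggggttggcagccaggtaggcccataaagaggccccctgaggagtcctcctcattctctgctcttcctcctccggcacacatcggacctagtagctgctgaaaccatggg
Spon2: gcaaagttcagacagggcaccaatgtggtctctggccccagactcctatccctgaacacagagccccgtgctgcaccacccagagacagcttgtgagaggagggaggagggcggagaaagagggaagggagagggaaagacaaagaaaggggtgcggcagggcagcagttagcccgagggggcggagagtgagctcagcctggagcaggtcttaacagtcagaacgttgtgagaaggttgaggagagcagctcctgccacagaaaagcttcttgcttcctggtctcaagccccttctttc
The match began 60 bases before the start in Islr (TGAAGTG), 196 bases before it in Mia (TCAAGTG) and 217 bases before it in Chadl (TAAAGTG). The motif stood in 11.5% of all 33469 promoter windows of the table and in 7.96% of the 9404 windows of genes tested here. It stood in 8.83% of the windows of genes that were higher with Nkx2.2 (91 of 1030) and in 9.58% of those of genes that were lower (89 of 929), both close to the share over all genes tested. These are counts of letters in a window, not of binding.

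Genes were then grouped by 46 lists of function or cell type and 59 gene families. A list's share of members called is read against the 10.5% higher and 9.73% lower over all genes tested. Where the list counts without the block or without pair 2 are given, the matching shares over all genes are 5.46% and 3.42% without the block and 4.6% and 3.15% without pair 2. For the other pairs left out, the numbers over all genes are to be set beside 1530 higher and 1421 lower in the main fit. They were 1148 and 968 without pair 1, 1735 and 1610 without pair 3 and 1118 and 938 without pair 4.

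**Figure D3:**
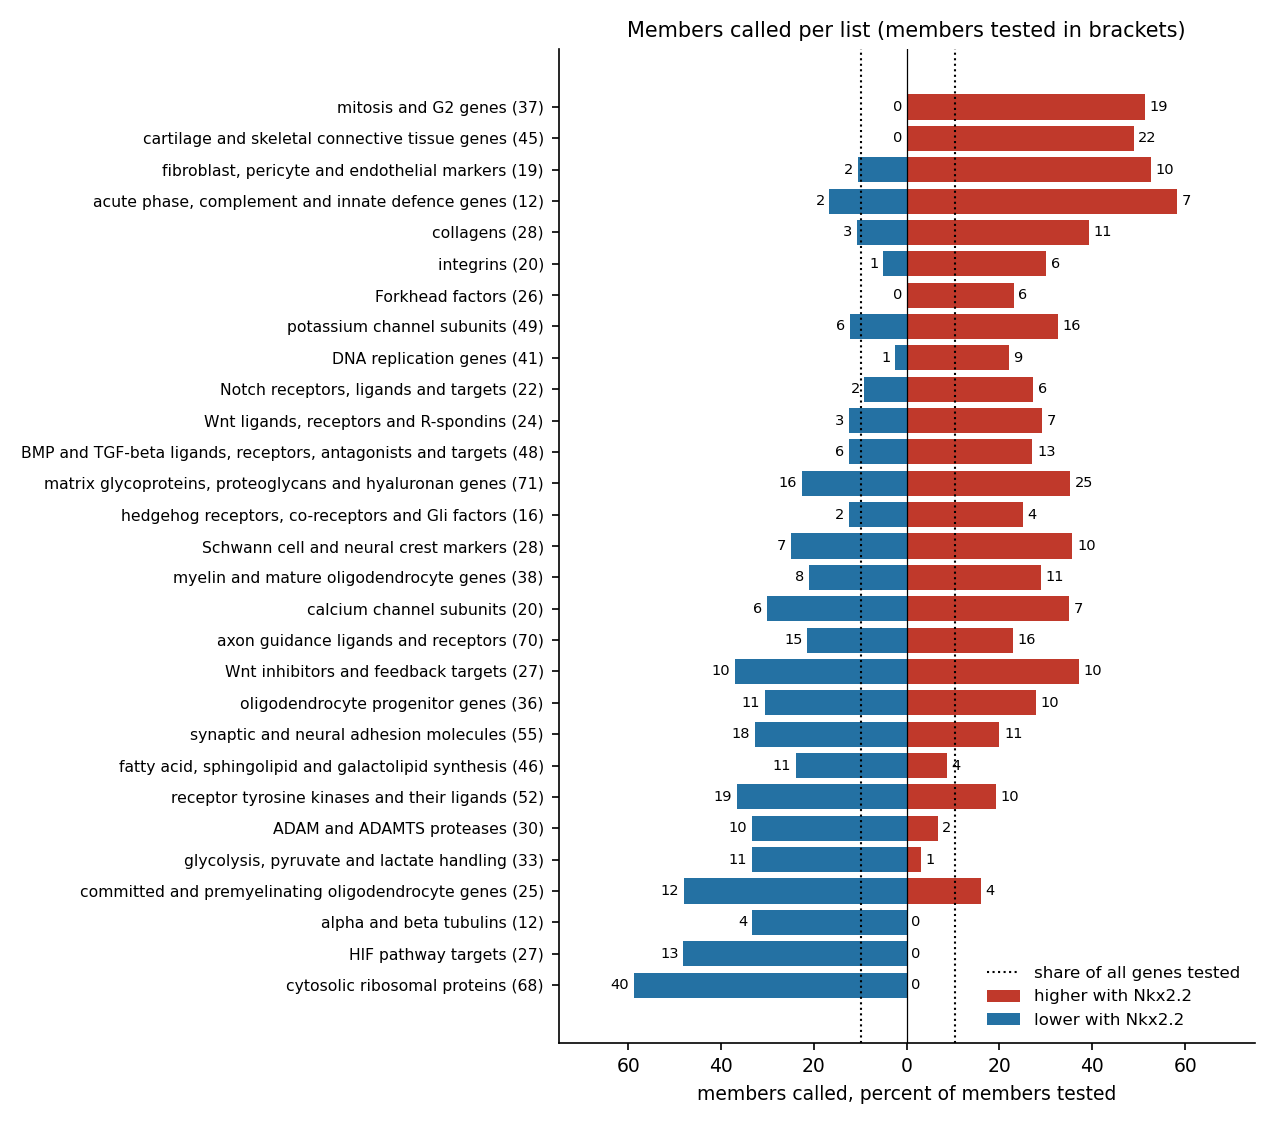
Percent of tested members called higher (red, to the right) and lower (blue, to the left) with Nkx2.2 in 29 lists and families, with the number called at the end of each bar and the number tested in brackets. Dotted lines mark the shares over all genes tested (10.5% higher and 9.73% lower). Cartilage genes, collagens and mitotic genes lie to the right, and ribosomal proteins, HIF targets and premyelinating genes to the left.

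Many genes of cartilage and skeletal connective tissue rose, and none passed as lower. Of 45 members tested, 22 were higher (48.9%) and 0 lower, with a median log2 change of 0.77 over all 45. The count of higher members lay between 19 and 24 without the block or without any 1 pair, and the count of lower members between 0 and 2. The median ratio was above 0 in each pair, at 0.88, 0.71, 0.48 and 1.02 in pairs 1 to 4. Other lists or families hold 22 of the 45 members, so the counts of related lists are not independent.

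Among signals and regulators of this list, Gdf5, the joint-forming growth factor of the BMP family, had 1.501, 2.42, 1.61 and 2.29 CPM with Nkx2.2, against 0.0207, 0.0249, 0 and 0.0208 CPM in control, where 1 library had no count (6.88 ± 0.37, adjusted p = 3.77e-05). In the first control library 0.0207 CPM is 1 count, so the size of this change and its SE rest on very few control counts. Sox5, a partner of Sox9 in cartilage that also acts in oligodendrocyte precursors, had 37.1, 31.4, 22.1 and 38.4 CPM with Nkx2.2, against 5.65, 6.44, 6.49 and 2.85 CPM in control (2.62 ± 0.28, adjusted p = 0.000797). Foxc1 and Foxc2, forkhead factors of skeletal and vascular mesenchyme, rose by 2.32 ± 0.18 and 2.43 ± 0.26 (adjusted p = 0.000206 and 0.000713). Sox9 itself, the master factor of chondrocytes, lay at 15.9 ± 3.297 CPM with Nkx2.2 and 11.6 ± 2.67 CPM in control and missed the threshold (0.47 ± 0.14, adjusted p = 0.0537, and 0.0251 with DESeq2). The groups overlapped for Sox9 and did not for Sox5, Foxc1 and Foxc2.

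Among matrix and secreted products, Chi3l1, a chitinase-like protein of cartilage and reactive glia, had 28.5, 33.7, 22.003 and 39.5 CPM with Nkx2.2, against 0.248, 0.823, 0.814 and 0.396 CPM in control (5.80 ± 0.31, adjusted p = 3.84e-05). Scara5, a ferritin receptor, rose by 5.75 ± 0.17, Clec3a, a cartilage lectin, by 5.53 ± 0.26, Mia by 4.61 ± 0.17, Fmod, which encodes the collagen-binding proteoglycan fibromodulin, by 4.35 ± 0.33 and Mgp, the matrix Gla protein that restrains calcification, by 2.88 ± 0.19 (adjusted p of at most 0.000199). In these 5 genes no Nkx2.2 library overlapped the control libraries. Acan, the core protein of the proteoglycan aggrecan, was already abundant in control and had, among genes whose groups did not overlap, the largest rise in absolute level, with 2149, 3006, 2582 and 3873 CPM with Nkx2.2, against 725, 1269.8, 1681 and 1279 CPM in control (1.27 ± 0.17, adjusted p = 0.00196). Its linker protein Hapln1 rose by 0.87 ± 0.15 (adjusted p = 0.00605). Col2a1, the main collagen of cartilage, lay at 1009.8 ± 378 CPM with Nkx2.2 and 286 ± 121 CPM in control (1.80 ± 0.22, adjusted p = 0.00136), higher in every pair although the Nkx2.2 library of pair 3 overlapped the control range. Among the other abundant collagens of cartilage, Col9a1 (0.29 ± 0.23, adjusted p = 0.413) and Col9a2 (0.15 ± 0.10, adjusted p = 0.324) did not pass, and Col9a3 rose by 0.75 ± 0.14 (adjusted p = 0.00952) but not without pair 2 (adjusted p = 0.0702).

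**Figure D4:**
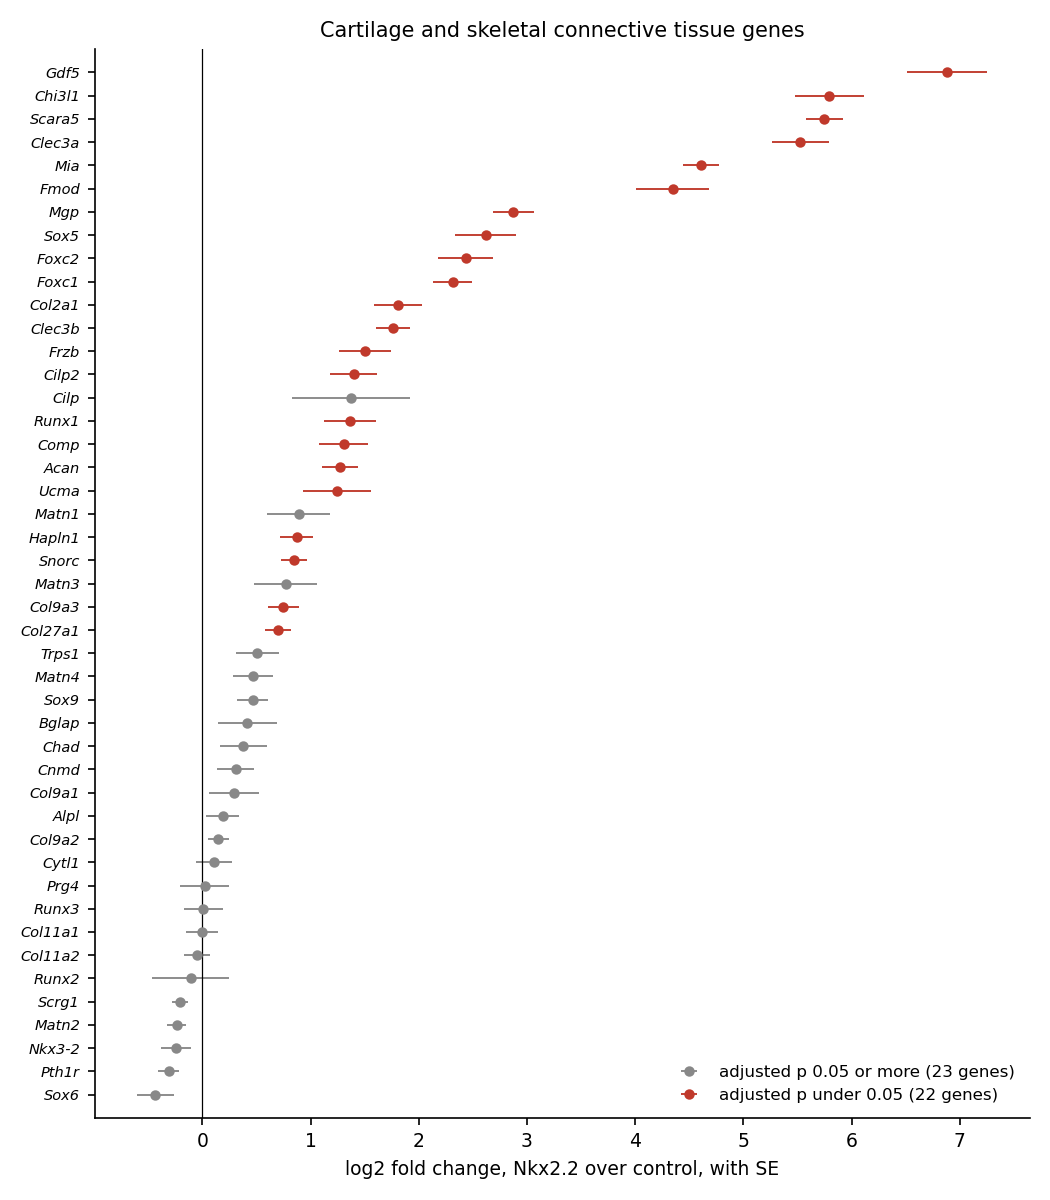
Log2 fold change of Nkx2.2 over control with its SE (horizontal axis) for the 45 tested members of the cartilage and skeletal list. The 22 members that passed (red) all lie above 0, and the 23 that did not pass (grey) lie on both sides of 0. Those that passed run from Col27a1 at 0.70 (adjusted p = 0.00586, and 0.22 without the block) to Gdf5 at 6.88, whose control level rests on few counts.

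Extracellular matrix genes as a whole moved in both directions. Of 71 matrix glycoproteins, proteoglycans and hyaluronan genes tested, 25 were higher and 16 lower. The numbers were 18 and 6 without the block and 18 and 8 without pair 2. Fn1, which encodes the cell-adhesive glycoprotein fibronectin, had 111, 105, 25.5 and 94.3 CPM with Nkx2.2, against 8.23, 8.51, 4.72 and 10.5 CPM in control (3.28 ± 0.21, adjusted p = 8.51e-05). The lowest of the Nkx2.2 values, that of pair 3, still lay above the control range. Lamb2, the laminin beta 2 chain, had 119, 109.8, 105 and 147 CPM with Nkx2.2, against 10.8, 14.3, 16.3 and 22.2 CPM in control (2.96 ± 0.13, adjusted p = 1.8e-05), while Lamb1, the beta 1 chain, fell by 0.81 ± 0.08 (adjusted p = 0.000589). Eln, which encodes elastin, rose by 3.04 ± 0.20, Spp1, which encodes osteopontin, by 3.70 ± 0.26, Thbs1, which encodes thrombospondin 1, by 2.94 ± 0.23, and Ctgf, a matricellular target of YAP signalling, by 3.23 ± 0.28. In the other direction Sparcl1, a matricellular protein, fell by 2.36 ± 0.30, Spon1, which encodes F-spondin, by 1.37 ± 0.20 and Nid2, the basement membrane protein nidogen 2, by 0.90 ± 0.12. Nid2 did not pass in the fit of 12 libraries without a block (adjusted p = 0.0544). The adjusted p of these 7 genes was at most 0.00291.

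Of 28 collagen genes tested 11 were higher and 3 lower, against a background of 10.5% and 9.73%. Col6a2, a chain of collagen VI, rose by 2.496 ± 0.18, Col18a1, a basement membrane collagen, by 2.16 ± 0.28, Col8a2 by 2.09 ± 0.15 and Col12a1, a collagen that decorates fibrils, by 1.43 ± 0.15, whereas Col20a1 fell by 1.34 ± 0.15 and Col5a1, of fibrillar collagen V, by 1.05 ± 0.10 (adjusted p of at most 0.00177). The integrins hold the receptors of collagens, laminins and fibronectin, and 6 of 20 were higher and 1 lower (4 and 0 without the block, 4 and 0 without pair 2, 7 and 3 without pair 3, 4 and 2 without pair 4). The 3 largest of these rises were those of Itga11 (3.63 ± 0.48), Itga10 (2.91 ± 0.32) and Itga1 (2.59 ± 0.27), alpha chains of collagen-binding integrins. Itga1 had 35.3, 19.5, 5.02 and 17.7 CPM with Nkx2.2, against 4.03, 3.19, 1.94 and 2.25 CPM in control, and Itga10 and Itga11 stayed below 3 CPM in every library. The groups did not overlap for any of the 3 genes, and their adjusted p was at most 0.00192.

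Matrix-cutting proteases were called in both directions. Of 7 matrix metalloproteinases 4 were higher and 2 lower (2 and 1 without the block, 2 and 1 without pair 1, 0 and 1 without pair 2 and 2 and 1 without pair 4), with a median log2 change of 0.53. Of 30 ADAM and ADAMTS genes tested 2 were higher and 10 lower (1 and 6 without the block, 1 and 8 without pair 2, 5 and 11 without pair 3 and 1 and 9 without pair 4). Adamts5, an aggrecan-cleaving protease, had 2.18, 3.002, 3.95 and 4.97 CPM with Nkx2.2, against 9.804, 6.41, 10.9 and 11.3 CPM in control (-1.46 ± 0.19, adjusted p = 0.00164). Adamts2, which trims procollagen, fell by 1.30 ± 0.16 and Adam23, a surface protein of the family without protease activity, fell by 1.29 ± 0.12 (adjusted p = 0.00161 and 0.000421). Every Nkx2.2 library lay below every control library for these 3 genes. Adamtsl2, a matrix protein that resembles them but lacks the protease domain, rose by 4.53 ± 0.54 (adjusted p = 0.00117), with control levels of at most 0.113 CPM.

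Because fibroblasts and vascular cells share matrix genes, the markers of these cells are given beside the matrix results. Of 19 fibroblast, pericyte and endothelial markers tested 10 were higher and 2 lower. These numbers were 10 and 1 without the block and 8 and 1 without pair 2. The groups did not overlap for any of the 10 higher members, against 1649 of all 2951 genes that passed. Other lists hold 15 of the 19. The summed level of the 20 members with a name in the files was 308 to 470.0 CPM with Nkx2.2 and 284 to 343 CPM in control. The median log2 change of the 19 was 0.88, and their median log2 ratio was 0.86, 0.88, 1.49 and 1.55 in pairs 1 to 4. Islr, Fn1, Thbs1, Col6a2 and Foxc1, described above, are among the higher members, and Col5a1 is among the lower ones. Col1a1, the main collagen of fibroblasts, lay at 7.77 to 12.8 CPM with Nkx2.2 and 2.76 to 11.1 CPM in control and did not pass (0.63 ± 0.28, adjusted p = 0.16, and 0.0181 without pair 1). Col3a1, also of fibroblasts, stayed at 0.258 to 1.62 CPM with Nkx2.2 and 0.0452 to 0.208 CPM in control and passed with 2.35 ± 0.44 (adjusted p = 0.00845), but not without pair 2 or 4 (adjusted p = 0.0665 and 0.0589). Kdr, an endothelial receptor of vascular growth factor, fell by 0.83 ± 0.23 (adjusted p = 0.0383), a call lost without the block or without pair 2 or 3 (adjusted p = 0.0572, 0.183 and 0.0619) and with counts thinned to the smallest library's total (0.0505). The other 14 markers of the list, among them Dcn, Pdgfrb and Pecam1, were not analysed here. The part of such cells in the matrix results was not tested.

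Secreted defence proteins formed a small group with large changes. Of 12 acute phase, complement and innate defence genes tested 7 were higher and 2 lower (6 and 0 without the block, 5 and 1 without pair 1 and 5 and 0 without pair 2). Beside Lcn2 and Chi3l1, Cp, the copper-carrying ferroxidase ceruloplasmin, had 49.2, 40.5, 20.6 and 43.9 CPM with Nkx2.2, against 16.8, 15.1, 14.99 and 12.3 CPM in control (1.33 ± 0.20, adjusted p = 0.00372). C1r, a protease of the classical complement pathway, rose by 1.15 ± 0.12 and Cd14, a receptor of bacterial lipopolysaccharide, by 1.58 ± 0.25 (adjusted p = 0.000615 and 0.00429). Il1r1, the receptor of interleukin 1, had 12.3, 8.42, 1.77 and 5.004 CPM with Nkx2.2, against 0.641, 0.549, 0.203 and 0.437 CPM in control (3.83 ± 0.21, adjusted p = 3.77e-05). Of 33 genes of the interferon response and MHC class I 7 were higher and 2 lower (7 and 1 without pair 1, 7 and 1 without pair 2 and 7 and 1 without pair 4). Of 22 cytokines, chemokines and NF-kB targets 6 were higher and 1 lower (2 and 0 without the block, 2 and 1 without pair 2, 6 and 2 without pair 3 and 2 and 1 without pair 4). Cxcl10, an interferon-induced chemokine, rose by 3.06 ± 0.31 and RT1-S3, a class I histocompatibility gene, by 1.58 ± 0.12, while Mx2, an interferon-induced GTPase, fell by 1.36 ± 0.09 (adjusted p of at most 0.000621). Of 21 markers of microglia and macrophages 8 were analysed, with a summed level of 91.8 to 102 CPM with Nkx2.2 and 79.4 to 98.5 CPM in control. Csf1r, the receptor that defines macrophages, lay at 0.349 to 0.6 CPM with Nkx2.2 and 0.181 to 0.333 CPM in control (1.07 ± 0.29, adjusted p = 0.0359) and did not pass without the block, without any 1 of the pairs or with DESeq2 (adjusted p = 0.0613 to 0.161).

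Receptors and secreted modulators of several signalling pathways were among the genes called. Of 24 Wnt ligands, receptors and R-spondins tested 7 were higher and 3 lower (6 and 2 without the block, 5 and 2 without pair 2). Wnt11, a ligand of non-canonical Wnt signalling, had 10.4, 11.6, 3.66 and 10.5 CPM with Nkx2.2, against 0.103, 0.225, 0.203 and 0.187 CPM in control (5.63 ± 0.30, adjusted p = 3.77e-05). The 4 Nkx2.2 libraries stood far above control, that of pair 3 the least so. Wnt5a, another ligand of that kind, fell by 1.07 ± 0.18, and Rspo2, which strengthens canonical signalling, by 1.03 ± 0.10. The receptors Fzd9, Lrp5 and Ror1 rose by 1.55 ± 0.13, 1.26 ± 0.15 and 1.57 ± 0.17, and the R-spondin receptor Lgr4 fell by 1.15 ± 0.07. The adjusted p of these 6 genes was at most 0.00578.

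Inhibitors and feedback targets of the Wnt pathway split, with 10 higher and 10 lower of 27 tested (8 and 5 without the block, 9 and 4 without pair 2 and 9 and 6 without pair 4). Wif1, a secreted inhibitor that binds Wnt proteins, had 78.6, 72.2, 55.1 and 95.4 CPM with Nkx2.2, against 3.41, 3.07, 4.59 and 6.44 CPM in control (4.14 ± 0.18, adjusted p = 1.53e-05). Among the members that rose were the feedback targets Nkd1 (1.86 ± 0.11), Notum (1.65 ± 0.15), Sp5 (2.70 ± 0.41) and Axin2 (0.64 ± 0.10), while the secreted inhibitor Sfrp1 fell by 1.26 ± 0.10 (adjusted p of at most 0.00348). Axin2, the usual reference target, changed least of these, with 16.5 to 18.9 CPM with Nkx2.2 and 10.996 to 11.8 CPM in control. Sp5 stayed below 1 CPM in every library.

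In the hedgehog pathway 4 of 16 members were higher and 2 lower (4 and 1 without the block). Boc, a co-receptor of hedgehog ligands, had 37.5, 35.2, 12.6 and 34.2 CPM with Nkx2.2, against 0.683, 1.25, 1.33 and 1.604 CPM in control (4.55 ± 0.34, adjusted p = 0.000185), and Scube3, which helps release ligands, rose by 1.69 ± 0.12 (adjusted p = 0.000153). Ptch1, the receptor and a target of the pathway, lay at 178 to 303 CPM with Nkx2.2 and 191 to 242 CPM in control and did not pass (0.19 ± 0.10, adjusted p = 0.196, and 0.0476 without pair 3). In the Notch pathway 6 of 22 were higher and 2 lower (4 and 1 without the block, 7 and 1 without pair 1, 3 and 0 without pair 2 and 4 and 0 without pair 4). The target Hes1, a bHLH repressor, had 14.02, 12.3, 6.91 and 13.8 CPM with Nkx2.2, against 3.23, 3.29, 2.803 and 2.67 CPM in control (1.94 ± 0.18, adjusted p = 0.000433), and Notch1 rose by 0.50 ± 0.08 (adjusted p = 0.00504).

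Of 48 BMP and TGF-beta pathway genes 13 were higher and 6 lower (7 and 2 without the block and 6 and 4 without pair 2). Beside Gdf5, the ligands Bmp7 (1.33 ± 0.12), Tgfb1 (1.06 ± 0.12) and Inhbb, a subunit of activins (1.78 ± 0.23), were higher, as was Id4, a target of BMP signals that sequesters bHLH factors (2.00 ± 0.09, adjusted p = 1.87e-05). Tgfbi, a matrix protein induced by TGF-beta, had 105, 87.9, 25.4 and 76.6 CPM with Nkx2.2, against 7.84, 7.81, 7.21 and 6.498 CPM in control (3.19 ± 0.31, adjusted p = 0.000488). Vwc2, a secreted BMP antagonist, fell by 2.09 ± 0.23 and Fstl4, of the follistatin family, by 1.40 ± 0.13. The adjusted p of the 5 named genes without one beside them was at most 0.00162. Proteins that bind insulin-like growth factors changed in both directions. Igfbp5 had 301, 242, 233 and 438 CPM with Nkx2.2, against 19.8, 19.7, 36.4 and 27.4 CPM in control (3.57 ± 0.22, adjusted p = 7.72e-05), and Igfbp4 rose by 1.22 ± 0.16 (adjusted p = 0.00179). Igfbp3 had 14.6, 15.4, 10.5 and 13.1 CPM with Nkx2.2, against 92.5, 88.2, 20.6 and 43.7 CPM in control (-1.99 ± 0.26, adjusted p = 0.00179).

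Receptor tyrosine kinases and their ligands were lower more often than higher, with 10 higher and 19 lower of 52 tested (4 and 5 without the block and 6 and 8 without pair 2). Erbb3, the receptor through which neuregulins act on oligodendroglia and Schwann cells, had 907, 787, 543 and 669 CPM with Nkx2.2, against 1606, 1242, 1108 and 1271 CPM in control (-0.85 ± 0.09, adjusted p = 0.000698). Every Nkx2.2 library lay below every control library. Kit, the receptor of stem cell factor, fell by 0.83 ± 0.12 (adjusted p = 0.00311), and Fgfr4, a receptor of fibroblast growth factors, rose by 2.55 ± 0.16 (adjusted p = 7.72e-05). Vegfa, the vascular growth factor, lay at 402 ± 208 CPM with Nkx2.2 and 714 ± 311 CPM in control and was lower in each pair (-0.85 ± 0.09, adjusted p = 0.000745), but did not pass without the block (adjusted p = 0.224).

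Transcription regulators were called in both directions. Of 26 forkhead factors 6 were higher and 0 lower (3 and 0 without pair 2 and 6 and 1 without pair 4). Foxd2 rose by 1.31 ± 0.18 (adjusted p = 0.00225). Tle2, a Groucho corepressor, had 107, 107, 92.4 and 131 CPM with Nkx2.2, against 16.4, 23.8, 36.4 and 29.9 CPM in control (2.09 ± 0.19, adjusted p = 0.000412), the largest change in the list of Nkx2.2 relatives, corepressors and targets apart from Nkx2-2 itself. Of the 18 members of that list tested 2 were higher (11.1%, against 10.5% over all genes), the introduced Nkx2-2 among them. A further 3 were lower (16.7%, against 9.73%), and the median log2 change was -0.04. These numbers were 2 and 0 without the block and 2 and 0 without pair 2. Npas2, a clock factor, rose by 2.31 ± 0.22, Snai1, a repressor that drives mesenchymal transition, by 1.16 ± 0.16 and Yap1, the co-activator of the Hippo pathway, by 2.32 ± 0.35, whereas the homeodomain factors Msx2 and Meis2 fell by 1.19 ± 0.19 and 0.93 ± 0.15 (adjusted p of at most 0.00494). Yap1 stayed at 0.253 to 1.38 CPM with Nkx2.2 and 0.0904 to 0.187 CPM in control.

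Ion channels and receptors of excitable cells were among the called genes. Of 49 potassium channel subunits 16 were higher and 6 lower (13 and 2 without the block and 13 and 3 without pair 2). Kcna6, a voltage-gated subunit, had 65.6, 72.4, 50.3 and 87.8 CPM with Nkx2.2, against 9.83, 14.4, 20.7 and 10.4 CPM in control (2.37 ± 0.27, adjusted p = 0.000933). Kcna4, another one, fell by 1.78 ± 0.19 (adjusted p = 0.000745). Kcnma1, the large-conductance calcium-activated channel, rose by 1.32 ± 0.17 (adjusted p = 0.00185). Of 20 calcium channel subunits 7 were higher and 6 lower (5 and 2 without the block, 6 and 2 without pair 1, 6 and 2 without pair 2 and 6 and 3 without pair 4). Cacna1e, the R-type channel, had 5.63, 3.63, 0.821 and 2.59 CPM with Nkx2.2, against 0.228, 0.274, 0.226 and 0.146 CPM in control (3.76 ± 0.38, adjusted p = 0.000632). Grin1, the obligatory subunit of NMDA receptors, had 4.27, 6.77, 3.41 and 7.96 CPM with Nkx2.2, against 0.662, 0.748, 0.362 and 0.646 CPM in control (3.19 ± 0.19, adjusted p = 6.8e-05). For Kcna6, Cacna1e and Grin1 every Nkx2.2 library lay above every control library. The purinergic receptor P2ry1 had 45.4, 31.8, 38.96 and 38.2 CPM with Nkx2.2, against 102, 102, 133 and 117 CPM in control (-1.55 ± 0.11, adjusted p = 0.000134), with no overlap. Rgs14, which limits G protein signals, rose by 6.07 ± 0.23 (adjusted p = 8.55e-06). Its mean level lay below the 5 CPM required of the largest rises described above.

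Guidance and adhesion molecules were called in both directions. Of 70 axon guidance ligands and receptors 16 were higher and 15 lower (14 and 7 without the block and 10 and 8 without pair 2). The neuropilins, co-receptors of class 3 semaphorins and of vascular growth factor, moved apart. Nrp2 had 41.9, 30.1, 13.9 and 39.2 CPM with Nkx2.2, against 11.7, 10.3, 2.69 and 4.62 CPM in control (2.198 ± 0.23, adjusted p = 0.000745), and Nrp1 had 1.196, 0.814, 1.1996 and 1.43 CPM with Nkx2.2, against 3.81, 4.44, 11.2 and 7.102 CPM in control (-2.40 ± 0.24, adjusted p = 0.000595). The groups did not overlap for either gene. Plxnd1, a semaphorin receptor, fell by 1.53 ± 0.15, and the secreted cues Ntn1, Ntn4 and Slit2 fell by 1.06 ± 0.06, 1.81 ± 0.23 and 1.28 ± 0.11 (adjusted p of at most 0.00179). Of 55 synaptic and neural adhesion molecules 11 were higher and 18 lower (8 and 5 without the block, 5 and 7 without pair 2 and 7 and 16 without pair 4). L1cam, an adhesion protein of axons and Schwann cells, rose by 1.94 ± 0.21, and its relative Nrcam and the synaptic organizer Lrrtm2 fell by 1.16 ± 0.14 and 1.40 ± 0.11 (adjusted p of at most 0.00137).

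Markers of neurons, astrocytes and Schwann cells were called in both directions. Of 24 neuron markers 8 were higher and 3 lower (5 and 1 without the block and 5 and 0 without pair 2). Their summed level was 1162 to 1343 CPM with Nkx2.2 and 1074 to 2163 CPM in control. Nefh, a neurofilament chain, rose by 2.16 ± 0.20 (adjusted p = 0.00041), at only 3.62 ± 1.12 CPM with Nkx2.2 and 0.816 ± 0.272 CPM in control. Of 18 astrocyte markers 7 were higher and 2 lower (3 and 2 without the block and 6 and 1 without pair 2), with Agt, which encodes angiotensinogen, at 1.76 ± 0.15 and Slc4a4, a bicarbonate carrier, at -1.25 ± 0.13 (adjusted p = 0.000249 and 0.000663). The median log2 change of the 18 was 0.29. The summed level of these astrocyte markers was 5185 to 9522 CPM with Nkx2.2 and 3883 to 6871 CPM in control. Of 28 Schwann cell and neural crest markers 10 were higher and 7 lower, with a summed level of 4938 to 8189 CPM with Nkx2.2 and 6304 to 7498 CPM in control. These numbers were 8 and 3 without the block. Within this list Ncmap, a protein of peripheral myelin, rose by 4.43 ± 0.38 and Pmp22 by 0.97 ± 0.09, while Erbb3, Mitf, a factor of melanocytes, and Fabp7, a fatty acid-binding protein of glial precursors, fell by 0.85 ± 0.09, 0.75 ± 0.09 and 1.08 ± 0.18 (adjusted p of at most 0.00541).

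In the oligodendrocyte lineage itself the direction depended on the genes. Of 38 myelin and mature oligodendrocyte genes 11 were higher and 8 lower (7 and 4 without the block, 10 and 5 without pair 1 and 8 and 4 without pair 2). Gpr37, a receptor of maturing oligodendrocytes, had 40.6, 49.4, 69.4 and 69.5 CPM with Nkx2.2, against 6.52, 6.01, 10.2 and 13.996 CPM in control (2.69 ± 0.12, adjusted p = 1.74e-05). Apod, which encodes apolipoprotein D, rose by 1.55 ± 0.14 and Gjb1, which encodes connexin 32, by 1.68 ± 0.18, whereas the tetraspanin Tspan2, the membrane protein Plekhb1 and the tight junction protein Cldn11 fell by 1.14 ± 0.10, 0.75 ± 0.07 and 0.66 ± 0.13 (adjusted p of at most 0.0105). Of 25 genes of committed and premyelinating cells 4 were higher and 12 lower, with a median log2 change of -0.32. These numbers were 2 and 4 without the block, 2 and 4 without pair 2 and 2 and 8 without pair 4. Ninj2, an adhesion molecule, had 37.4, 36.5, 58.8 and 48.9 CPM with Nkx2.2, against 64.8, 60.6, 95.9 and 76.98 CPM in control (-0.71 ± 0.07, adjusted p = 0.000441). Bcas1, a marker of newly forming oligodendrocytes, lay at 2371 ± 454 CPM with Nkx2.2 and 3491 ± 514 CPM in control (-0.56 ± 0.09, adjusted p = 0.0038, and 0.0556 without the block). Fyn, a kinase of myelination, fell by 0.51 ± 0.09 (adjusted p = 0.00699, and 0.0639 without pair 2). Enpp6, a choline phosphodiesterase of new oligodendrocytes, rose against that direction by 1.27 ± 0.20 (adjusted p = 0.00449), although the groups overlapped. Of 36 progenitor genes 10 were higher and 11 lower (7 and 4 without the block and 7 and 6 without pair 2).

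Lipid genes were called in both directions. Of 46 genes of fatty acid, sphingolipid and galactolipid synthesis 4 were higher and 11 lower (0 and 4 without the block and 0 and 4 without pair 2). Kdsr, an enzyme of sphingolipid synthesis, had 23.7, 27.3, 28.5 and 29.9 CPM with Nkx2.2, against 61.2, 52.1, 45.4 and 68.98 CPM in control (-1.04 ± 0.11, adjusted p = 0.000857). The desaturases Scd and Fads2 fell by 0.57 ± 0.09 and 0.66 ± 0.08 with the block (adjusted p = 0.0043 and 0.00128) and did not pass without it (adjusted p = 0.0718 and 0.104). Of 30 genes of cholesterol synthesis, uptake and export 4 were higher and 4 lower (2 and 0 without the block and 3 and 2 without pair 2). Of 25 lipid carriers and lipocalins 9 were higher and 5 lower (4 and 3 without the block and 6 and 3 without pair 2), with a median log2 change of 0.48. Apoe, the main lipid carrier of the brain, had 95.99, 114, 134 and 97.01 CPM with Nkx2.2, against 21.6, 16.3, 23.1 and 20.5 CPM in control (2.44 ± 0.11, adjusted p = 1.88e-05), without overlap.

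Ribosomal protein genes were called only as lower, by small amounts, and most of these calls were lost without the block. Of 68 cytosolic ribosomal proteins tested 0 were higher and 40 lower, with a median log2 change of -0.30. The number lower was 2 without the block and 2 without pair 2, and 18, 47 and 13 without pair 1, 3 and 4. Rpl22, for example, had 142, 151, 201 and 161 CPM with Nkx2.2, against 185, 205, 253 and 226 CPM in control (-0.40 ± 0.06, adjusted p = 0.00457, and 0.0866 without the block). It was lower in each pair while the groups overlapped. The median ratio of the list was below 0 in each pair, at -0.28, -0.34, -0.13 and -0.54, beside medians between -0.02 and -0.000446 over all genes. Ribosomal protein genes have many processed copies, so their counts depend on how the authors treated reads with several matches, which is not given in the sources used here. Of 12 alpha and beta tubulins 0 were higher and 4 lower (0 and 1 without pair 2). Tuba1a, the main neural alpha tubulin, had 3143, 3397, 5099 and 3636 CPM with Nkx2.2, against 5469.5, 5889.9, 5964 and 5577 CPM in control (-0.60 ± 0.12, adjusted p = 0.0117), a call lost without pair 2 (adjusted p = 0.0883).

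Genes of glycolysis and of the hypoxia response were called mostly as lower. Of 33 genes of glycolysis and lactate handling 1 was higher and 11 were lower (0 and 5 without the block, 0 and 8 without pair 1, 0 and 4 without pair 2 and 0 and 11 without pair 4). Ldha, which makes lactate, had 1375, 1907, 2031 and 1824 CPM with Nkx2.2, against 2939, 3136, 2918 and 2849 CPM in control (-0.74 ± 0.11, adjusted p = 0.00364). Pfkm, a phosphofructokinase, had 85.7, 88.8, 101 and 86.1 CPM with Nkx2.2, against 149.8, 181, 182 and 191 CPM in control (-0.95 ± 0.08, adjusted p = 0.000228), and both genes passed in every alternative fit. Of 27 targets of the hypoxia-inducible factor HIF 0 were higher and 13 lower (0 and 1 without the block and 0 and 4 without pair 2). Lox, a crosslinker of collagen, had 0.915, 2.699, 7.48 and 3.997 CPM with Nkx2.2, against 3.93, 9.504, 21.2 and 36.8 CPM in control (-2.14 ± 0.26, adjusted p = 0.00132, and 0.0944 without the block). Adm, which encodes adrenomedullin, had 1.01, 4.84, 8.81 and 4.36 CPM with Nkx2.2, against 8.89, 18.2, 12.4 and 13.5 CPM in control (-1.70 ± 0.34, adjusted p = 0.0117, and 0.106 without the block and 0.083 without pair 2). Both genes were lowest in the Nkx2.2 library of pair 1 and varied widely within each group. The median ratio of the HIF list was -0.66, -0.62, -0.28 and -0.21 in pairs 1 to 4.

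Genes of mitosis were called only as higher, and the count depended on the pairs. Of 37 mitosis and G2 genes 19 were higher and 0 lower, with a median log2 change of 0.40. The number higher was 5 without the block and 4, 0, 6 and 30 without pair 1, 2, 3 and 4. Ndc80, a kinetochore protein, had 34.9, 33.4, 31.0005 and 26.6 CPM with Nkx2.2, against 22.8, 23.8, 22.6 and 23.1 CPM in control (0.45 ± 0.09, adjusted p = 0.00979, and 0.0729 without pair 2). Ccnb1, which encodes cyclin B1, had 46.8, 48.6, 48.1 and 37.6 CPM with Nkx2.2, against 26.2, 32.8, 32.4 and 35.3 CPM in control (0.53 ± 0.11, adjusted p = 0.0158, and 0.0943 without pair 2). The Nkx2.2 library of pair 4 was the lowest of its group for both genes. Of 41 DNA replication genes 9 were higher and 1 lower (2 and 0 without the block, 3 and 1 without pair 1, 0 and 0 without pair 2, 4 and 0 without pair 3 and 21 and 0 without pair 4). The median ratio was 0.67, 0.40, 0.42 and -0.03 for mitosis and 0.34, 0.41, 0.41 and -0.10 for replication in pairs 1 to 4, so pair 4 lay apart in both.

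**Figure D5:**
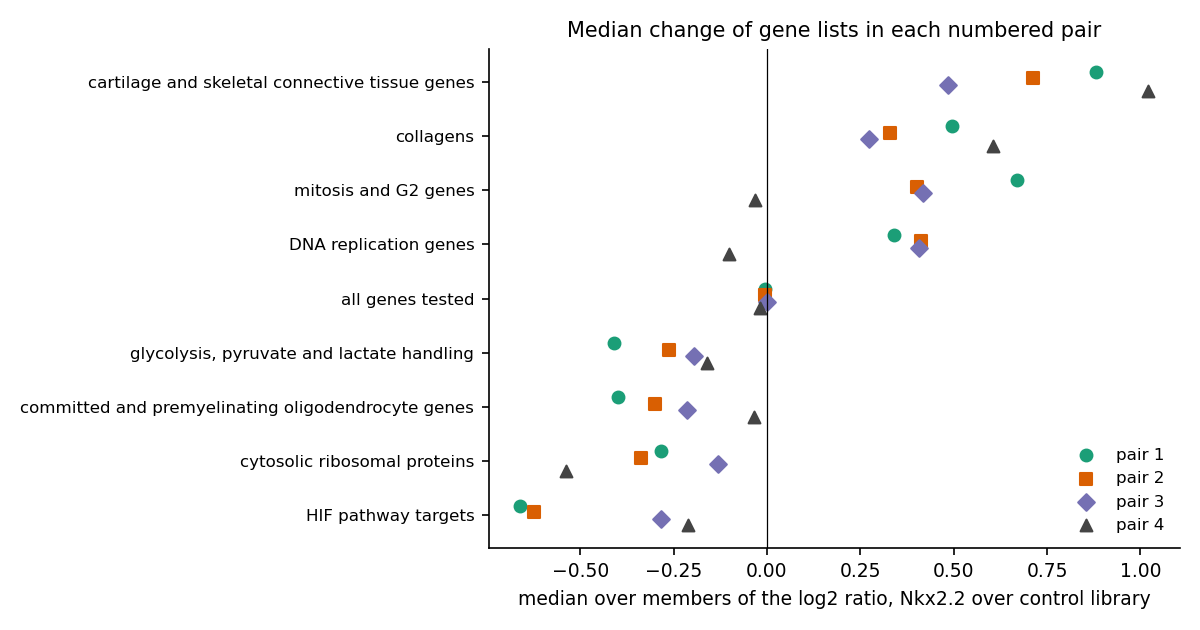
Median over list members of the log2 ratio of the Nkx2.2 to the control library (horizontal axis) in each of the 4 pairs (symbols), for 8 lists or families and for all genes tested. Cartilage genes and collagens lie above 0, and HIF targets and ribosomal proteins below 0, in each pair, while pair 4 lies near or below 0 for mitosis (-0.03) and replication (-0.10).

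It was then tested whether these differences set Nkx2.2 apart from another introduced factor, the zinc finger regulator Zfp488. In that fit of 12 libraries 6276 of 14811 genes (42.4%) differed between Nkx2.2 and Zfp488, 3741 without the block and 3818 without pair 2. Of the 22 cartilage genes called against control, 20 also differed from Zfp488 in the same direction. The numbers were 15 of 19 for mitosis, 11 of 13 for HIF targets and 15 of 40 for ribosomal proteins. These list counts take 1 direction per gene, whereas the 42.4% takes either. Islr lay at 2.03 ± 0.964 CPM with Zfp488 (SD, n = 4) and was higher with Nkx2.2 by 5.44 ± 0.20. Wnt11 was higher than with Zfp488 by 4.36 ± 0.27, Gdf5 by 6.14 ± 0.38, Boc by 4.38 ± 0.29 and Igfbp5 by 3.69 ± 0.26. The adjusted p of these 5 differences was at most 4.16e-06. Has2 was lower than with Zfp488 (-2.46 ± 0.11, adjusted p = 2.28e-07), as were Ampd3 (-1.94 ± 0.13, adjusted p = 2.42e-06) and Erbb3 (-0.94 ± 0.08, adjusted p = 1.24e-05). For other genes no difference between the factors passed. Col6a2 lay at 10.4 ± 2.98 CPM with Nkx2.2 and 1.85 ± 0.494 CPM in control, and at 18.01 ± 9.14 CPM with Zfp488, and Nkx2.2 minus Zfp488 was -0.64 ± 0.28 on the log2 scale (adjusted p = 0.0833). Chgb, a granin of secretory vesicles, lay at 2.61 ± 0.204 CPM with Nkx2.2 and 0.684 ± 0.269 CPM in control, a rise of 1.98 ± 0.22 (adjusted p = 0.000961), and at 2.53 ± 1.43 CPM with Zfp488, with 0.16 ± 0.31 between the factors (adjusted p = 0.709). Tgfb1 differed between the factors by 0.03 ± 0.14 and C1r by 0.13 ± 0.12 (adjusted p = 0.87 and 0.436). This comparison uses the same Nkx2.2 libraries as the one with control.

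Primary rat oligodendroglia, which share no library with the comparison, give the direction of the same genes in normal differentiation. Of 12310 genes tested there, 10439 (84.8%) differed between differentiating and proliferating cells. Of the 1241 genes that were higher with Nkx2.2 and tested in both, 468 (37.7%) rose and 614 (49.5%) fell in primary differentiation. Of the 1225 that were lower with Nkx2.2, 642 (52.4%) rose and 456 (37.2%) fell. Over all 11652 genes tested in both the shares were 42.8% and 42.0%. The genes higher with Nkx2.2 made up 9.39% of all rises and 12.6% of all falls in primary cells, and the genes lower with Nkx2.2 made up 12.9% and 9.33%. Across 11650 genes the 2 changes had a Pearson correlation of -0.046 and a Spearman correlation of -0.094, given as a description, since genes are not independent.

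Single genes showed both patterns. Gpr37, higher with Nkx2.2, also rose in primary differentiation, by 7.27 ± 0.08 on the log2 scale, and Acan and Col2a1 did so by 3.51 ± 0.28 and 3.21 ± 0.51. Islr, Fn1, Spp1 and Mgp, also higher with Nkx2.2, fell in primary differentiation, with changes of -3.62 ± 0.12, -3.48 ± 0.20, -3.85 ± 0.13 and -3.77 ± 0.13. Among genes lower with Nkx2.2, Tspan2, Cldn11 and Ninj2 rose in primary cells by 5.83 ± 0.08, 5.03 ± 0.10 and 4.27 ± 0.11, and Igfbp3 fell, with a change of -5.71 ± 0.06. The adjusted p in primary cells was at most 0.000131 for these 11 genes. Nkx2-2 itself had a change of -1.82 ± 0.25 in primary differentiation (adjusted p = 3.56e-05).

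The authors' deposited table for Nkx2.2 holds 2098 genes with an adjusted p under 0.05, of which 1940 were also called here with the same sign.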

How the data were processed

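RNA was sequenced, and reads were trimmed with Trimmomatic 0.36, aligned with STAR 2.5.2b to rn6 and counted per gene with featureCounts of Subread 1.5.2, per the submitters' processing notes. The sources used here do not give the annotation, the strand setting or how reads matching several places were handled. The values analysed are the raw counts per gene that the authors deposited, as whole numbers. The authors' deposited tables of DESeq2 results gave gene symbols for 14690 identifiers, with log2 fold changes and adjusted p-values. Spreadsheet conversion had turned 21 symbols into dates, and 208 named identifiers share a symbol. These were kept in the tests and were not named. A further 16 columns of normalized values per sample were not used.

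Tests used edgeR 4.0.16 under R 4.3.3 on the counts (quasi-likelihood F test, TMM, filterByExpr with a minimum count of 10, two-sided, Benjamini-Hochberg over all genes tested, threshold 0.05) on the 8 libraries, with the replicate number as a block. The pairing was checked on the data. Deviations from the group means correlated by 0.16 to 0.563 in the 4 pairs of the same number. The 12 other pairings gave -0.644 to 0.40, so the ranges overlap. Nkx2.2 library 2 correlated by 0.40 with control library 1 and by 0.38 with control library 2. Control library 4 correlated by 0.30 with Nkx2.2 library 3 and by 0.16 with Nkx2.2 library 4. Deviations from a mean cancel within a group, which forces some negative values. The check therefore cannot establish the pairing, and the block follows the replicate numbers. The Zfp488 contrast used the 12 differentiating CG4 libraries with the block, and the primary contrast 8 libraries without it. Levels are CPM scaled over the 12 libraries. Named genes were Nkx2-2, the 20 largest rises and falls by log2 change with a mean of at least 5 CPM and no overlap, the 15 largest by CPM difference, and up to 6 called members of each list with the smallest adjusted p or any called member changed by at least 1. Genes below that rule were named as uncalled members, as members of a figure or for their role in a list, after their values were seen. The members and lists were chosen with earlier results of these data known. The tests were tried on simulated counts first. Alternatives were the fit without the block, RLE factors, no filter, DESeq2 1.42.0, thinning to the smallest library, each replicate number left out, and all 12 libraries. Replicates differed beyond counting noise (chi-square per degree of freedom 28.0 to 148 with Nkx2.2 and 20.7 to 148 in control). Promoters came from RefSeq on GRCr8, matched by symbol for 9404 of 14315 tested genes with a symbol of their own, and coordinates are of that build only.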

Additional observations from a re-analysis of the deposited data

Results flagged for a closer look

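In 322 groups of 4 libraries (161 named genes, 2 groups each), 18 values stood apart from the other 3 by Dixon's test, close to the 1 group in 20 that chance gives. Libraries of replicate 3 were named most often. In the Nkx2.2 library of replicate 3, Boc (12.6 CPM), Wnt11 (3.66 CPM), Lrp5 (144 CPM) and Tgfb1 (11.4 CPM) lay below the other Nkx2.2 libraries, and Tspan2 (156 CPM) lay above them. In the control library of replicate 3, Tspan2 (266 CPM), Slc4a4 (16.7 CPM), Notum (1.24 CPM) and Adamtsl2 (0.113 CPM) lay above the other control libraries, while Tgfb1 (4.16 CPM) lay below them and Gdf5 had 0 CPM. Cd24 (33.0 CPM) stood high and Ccnb1 (37.6 CPM) low in the Nkx2.2 library of replicate 4, and Agt (20.4 CPM) stood low in that of replicate 1. Among control libraries, Mitf (69.5 CPM) and Ror1 (3.39 CPM) stood high and Sox10 (1507 CPM) low in replicate 1, and Csf1r (0.333 CPM) stood high in replicate 4.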

How the results depend on the processing

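The count of 2951 genes that differed between Nkx2.2 and control depended on the pairing. It was 1297 without the block, 1567 with all 12 libraries and no block, and 1139 to 3345 when a replicate number was left out, the lowest of these without replicate 2. RLE factors, no filter, DESeq2, thinning and the 12 libraries with the block gave 2806 to 3876. The 6276 differences from Zfp488 became 3741 without the block and 3818 to 5875 with a replicate number left out, the lowest again without replicate 2. The 10439 differences in primary differentiation stayed between 10186 and 10448 with 1 library left out and were 10413 with a replicate block. Of the 161 genes named, none changed sign in a fit that gave it a value, and the thinned fit gave none for a few of them. Calls were lost by 11 genes without the block, by 11 without replicate 2, by 10 with 12 libraries and no block, and by at most 2 in each other fit. Of genes that missed the threshold, Sox9 passed with DESeq2, with no filter and with 12 libraries and the block (adjusted p = 0.0251, 0.0273 and 0.0271), Col1a1 without replicate 1 (0.0181), and Sox10, Olig2 and Ptch1 without replicate 3 (0.0479, 0.0334 and 0.0476). For the lists, counts fell most without the block and without replicate 2, and the cause was not tested. With 3 residual degrees of freedom, small differences were not detectable at this number of libraries, and levels under 1 CPM rest on few counts.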

Other observations

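Genes that build sugar chains were called in both directions. Among sialyl-, fucosyl- and galactosyltransferases 11 of 51 were higher and 5 lower (6 and 3 without the block, 8 and 3 without pair 1, 6 and 3 without pair 2 and 8 and 3 without pair 4). Beside B4galnt3, St6galnac2, a sialyltransferase of O-glycans, had 13.2, 9.52, 6.66 and 9.73 CPM with Nkx2.2, against 1.03, 1.17, 1.02 and 0.958 CPM in control (3.21 ± 0.18, adjusted p = 5.02e-05). Galnt14, which starts O-glycans, fell by 1.73 ± 0.18 and Hs3st1, a heparan sulfate sulfotransferase, by 1.25 ± 0.07 (adjusted p = 0.000632 and 3.77e-05). Among tetraspanins, membrane organizers, 1 of 16 was higher and 6 lower (2 and 6 without pair 1 and 0 and 6 without pair 2), with Tspan7 lower by 0.61 ± 0.09 (adjusted p = 0.00319) beside Tspan2. Among protocadherins, adhesion proteins of the cadherin family, 9 of 30 were higher and 1 lower (4 and 0 without the block, 6 and 2 without pair 1, 2 and 0 without pair 2 and 3 and 1 without pair 4).

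Some of the largest gains in absolute level lay in secreted proteins of glia. Cst3, which encodes the protease inhibitor cystatin C, had 1327, 1142, 944 and 1383 CPM with Nkx2.2, against 319, 304, 357 and 484 CPM in control (1.73 ± 0.12, adjusted p = 0.000153). Mfge8, a bridge between dying cells and phagocytes, had 972, 1392, 1272 and 1347 CPM with Nkx2.2, against 581, 637, 648 and 917 CPM in control (0.86 ± 0.11, adjusted p = 0.00137). The groups did not overlap for either gene. Other families had few calls. Among zinc finger proteins 10 of 229 were higher and 11 lower (4 and 5 without the block, 3 and 4 without pair 2, 16 and 11 without pair 3 and 6 and 9 without pair 4), and among nuclear-encoded subunits of the respiratory chain 1 of 84 was higher and 5 lower (1 and 1 without the block, 0 and 2 without pair 1, 0 and 0 without pair 2 and 0 and 2 without pair 4).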
